A study of Homo sapiens with 6 samples.

Results

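The count tables hold 20 predicted microRNA entries, those whose name starts with novelmirna_, among 28846 small RNA entries, of which 2576 are known microRNAs with an hsa- name. Each predicted name gives a chromosome, a start, an end and a strand, and the positions are taken as hg19, the build in the submitters' processing notes. Small RNA was sequenced from K562 cells, a human erythroleukemia cell line, after transduction with SIEW, a lentiviral vector that expresses GFP only (control), or with SIEW RUNX1, which over-expresses human RUNX1 and GFP. Both groups had 3 samples, were grown in RPMI medium with FCS and were harvested after 10 days in culture. The transductions were independent, RUNX1 is forced from a vector in 1 cell line, and RUNX1 mRNA itself is not counted in small RNA libraries. The total counts ranged from 1618248 in control replicate 1 to 15245007 in RUNX1 replicate 1. The names of the control and the RUNX1 libraries carry different letters, whose meaning is not given, so whatever they mark cannot be told apart from the condition.

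The erythroid microRNAs miR-451a, miR-144-3p, miR-144-5p and miR-486-5p were counted in all 6 samples, with miR-451a at 2902 ± 232 CPM (counts scaled to a common library size by TMM) with empty vector and 1623 ± 283 CPM with RUNX1 (SD, n = 3 each). Of these 4, miR-144-3p was higher with RUNX1, with 119.6 and 242 CPM on average, and miR-144-5p (985 and 660.4 CPM) and miR-486-5p (764 and 438 CPM) were lower, as was miR-451a. Of 4 microRNAs of other tissues, miR-124-3p had no count, and miR-133a-3p and miR-122-5p had 6 and 29 counts in all libraries together. The islet microRNA miR-375 had 5929 counts, at 66.9 to 75.8 CPM with empty vector and 170.4 to 207 CPM with RUNX1, and its part in the results was not tested.

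Most microRNAs are cut from a hairpin in a longer transcript by the nucleases Drosha and Dicer. The paper describes miR-451 as made without Dicer. Either arm of the hairpin can give a mature microRNA, named 5p or 3p, and the seed, bases 2 to 8, pairs with target mRNAs. Programs that predict microRNAs look for places in the genome where short reads pile up on 1 arm of a possible hairpin. Such piles can also come from microRNAs that are already annotated or from pieces of other structured RNAs, such as the C/D box small nucleolar RNAs (snoRNAs), which guide the methylation of ribosomal RNA.

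Of the 20 predicted entries, 6 carried the counts of a known microRNA. For 3 entries all 6 counts were equal to those of 1 known microRNA and of no other entry, and for 3 more the counts in the 6 samples together differed by 1, 2 and 4. The measure of likeness was the largest log2 difference of count + 1 over the 6 samples, and these 6 pairs had values between 0 and 0.00229. Among the 910 other entries with at least 60 counts in all, no pair had equal counts, and the smallest such difference was 0.0679. The mature sequences of 5 of the 6 known microRNAs follow, since they are the RNAs whose counts stand under the predicted names. They are from RefSeq on GRCh38.p14, written 5′ to 3′ with the seed in capitals.

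miR-27b-3p (counts of the chr9 entry): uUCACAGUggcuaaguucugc

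miR-15a-5p (counts of the chr13 entry): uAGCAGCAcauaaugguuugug

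miR-146b-3p (counts of the chr10 entry): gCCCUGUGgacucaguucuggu

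miR-130b-5p (counts of the chr22 entry): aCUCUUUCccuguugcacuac

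miR-378a-3p (counts of the chr5 entry): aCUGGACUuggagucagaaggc

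The 5 seeds all differ. In each of these 5 pairs, the chromosome and strand in the predicted name were those of the RefSeq microRNA. The positions themselves were not compared, because RefSeq uses another build. The length of the predicted interval equalled that of the mature microRNA for miR-27b-3p (21 nt), miR-146b-3p and miR-378a-3p (22 nt each), was 22 nt against 21 nt for miR-130b-5p and 20 nt against 22 nt for miR-15a-5p.

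The most abundant predicted entry was novelmirna_chr9_97847787_97847807_plus. It had 15756, 60215 and 58166 counts in the empty vector libraries 1, 2 and 3, and 183585, 93216 and 93154 in the RUNX1 libraries 1, 2 and 3, the order used for all values. The entry of miR-27b-3p, a microRNA of the miR-23b/27b/24 cluster, had the same counts in 5 libraries and 60213 in control replicate 2, 2 fewer. By mean CPM the predicted entry ranked 18 and miR-27b-3p 19 among the 2596 microRNA entries. Its level was 7553 ± 95.2 CPM with empty vector and 14806 ± 1167 CPM with RUNX1 (SD, n = 3 each), without overlap of the groups. For this difference, edgeR's test gave a log2 fold change of 0.97 ± 0.114 (SE, edgeR, Benjamini-Hochberg adjusted p = 9.26e-05). It was 0.266 when libraries were scaled to their total alone, which moved the median log2 fold change of all tested entries by -0.698 and ended this call.

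The entry novelmirna_chr13_50623305_50623324_minus had 971, 3866 and 3667 counts with empty vector and 13742, 6707 and 5179 with RUNX1. These are the counts of miR-15a-5p in every library. miR-15a lies with miR-16-1 in a region that is often deleted in chronic lymphocytic leukemia, and is known to target BCL2. In CPM the entry had 464, 479.6 and 483 with empty vector and 1192, 1073 and 756 with RUNX1. All RUNX1 samples were higher, and replicate 3 was the lowest of them. It had a log2 fold change of 1.08 ± 0.173 (SE, edgeR, Benjamini-Hochberg adjusted p = 0.000604), and 0.365 with scaling to the total alone, where it was not called.

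The entry novelmirna_chr10_104196314_104196335_plus had 422, 1807 and 1672 counts with empty vector and 4877, 2593 and 3367 with RUNX1, equal to miR-146b-3p in all 6. It is the less abundant arm of miR-146b, a microRNA linked to NF-kB signalling. Its level was 215 ± 11.9 CPM with empty vector and 443 ± 42 CPM with RUNX1 (SD, n = 3 each), with no overlap. Its log2 fold change of 1.04 ± 0.13 (SE, edgeR, Benjamini-Hochberg adjusted p = 0.000141) became 0.348 with scaling to the total alone, where it was not called.

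The other 3 of the 6 were lower with RUNX1. The entry novelmirna_chr22_22007605_22007626_plus had 2783, 11206 and 10134 counts with empty vector and 10115, 5788 and 6616 with RUNX1. miR-130b-5p had 2 fewer in control replicate 2, 1 fewer in control replicate 3 and in RUNX1 replicate 3, and the same count in the other libraries. The level of the chr22 entry fell from 1351 ± 33.5 CPM to 923 ± 44.1 CPM (SD, n = 3 each), without overlap, a log2 fold change of -0.55 ± 0.114 (SE, edgeR, Benjamini-Hochberg adjusted p = 0.00256). This lies next to the fold-change threshold of 0.5. It was -0.475 with DESeq2 or with RLE factors, -0.461 without a filter on low counts, -0.492 without RUNX1 replicate 1 and -0.499 without RUNX1 replicate 3, and it was not called in any of these fits.

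The entry novelmirna_chr8_141742721_141742742_minus had 374, 1378 and 1345 counts with empty vector and 1068, 527 and 630 with RUNX1. miR-151a-5p, whose gene lies in an intron of the kinase gene PTK2, had 629 in RUNX1 replicate 3 and the same counts elsewhere. In CPM the chr8 entry had 179, 171 and 177 with empty vector and 92.6, 84.3 and 91.9 with RUNX1. The groups were far apart compared with their spread, with a log2 fold change of -0.97 ± 0.121 (SE, edgeR, Benjamini-Hochberg adjusted p = 0.000141). The change kept its call in all 14 alternative fits, with values from -1.67 to -0.88.

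The entry novelmirna_chr5_149112430_149112451_plus had 8, 40 and 29 counts with empty vector and 17, 10 and 15 with RUNX1, all equal to miR-378a-3p. miR-378a lies in an intron of PPARGC1B, a coactivator gene of energy metabolism. It was the lowest of the tested predicted entries, with 4.2 ± 0.659 CPM with empty vector and 1.75 ± 0.381 CPM with RUNX1 (SD, n = 3 each). The groups did not overlap, and the log2 fold change was -1.30 ± 0.281 (SE, edgeR, Benjamini-Hochberg adjusted p = 0.00323). It kept its call in the 13 alternative fits it could enter, and it did not pass a filter of at least 10 counts in every sample.

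**Figure D1:**
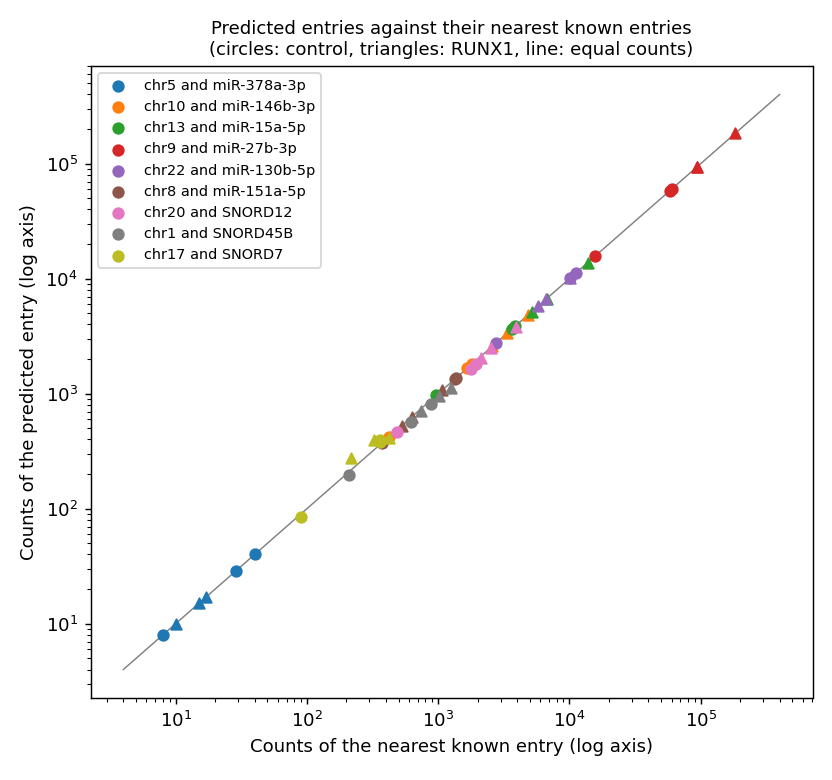
Counts of 9 predicted entries (vertical, log axis) against the counts of their nearest known entry (horizontal, log axis) in the 3 control samples (circles) and 3 RUNX1 samples (triangles); the line marks equal counts. The points of the 6 entries that carry the counts of a known microRNA lie on the line from 8 to 183585 counts, those of SNORD45B and SNORD12 lie just below it, and those of SNORD7 lie on both sides.

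Sequence relatives of these microRNAs, except miR-151a-5p, were looked up by shared seed after the counts had been seen. MicroRNAs on chromosome 8 were left out of this search. miR-27a-3p has the seed of miR-27b-3p and differs from it by 1 base over 21 nt, U19C, counted from 1 at the 5′ end of miR-27b-3p, so reads that stop before that base cannot be told apart. miR-27a-3p had 110795 counts in all 6 samples against 504092 of the chr9 entry, and its log2 fold change was 0.90 ± 0.146 (SE). Both were higher with RUNX1, and the other RefSeq microRNA found with this seed had no entry among the counted small RNAs.

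The seed of miR-15a-5p is shared by 6 other RefSeq microRNAs with an entry in the tables, of which 5 had at least 60 counts. The most abundant was miR-15b-5p, with 45905 counts in all against 34132 of the chr13 entry, and a log2 fold change of -0.04 ± 0.176 (SE, edgeR, Benjamini-Hochberg adjusted p = 0.869). miR-16-5p had 305 counts and a log2 fold change of -0.03 ± 0.268 (SE), and miR-195-5p had 894 counts and -0.14 ± 0.254 (SE). Whether reads that match several places in the genome lower counts such as that of miR-16-5p was not tested. The other 2 with at least 60 counts were called. miR-424-5p had 2598 counts, all RUNX1 samples above all control samples and a log2 fold change of 0.61 ± 0.165 (SE, edgeR, Benjamini-Hochberg adjusted p = 0.0108). miR-497-5p had 949 counts, overlapping samples and a log2 fold change of 0.57 ± 0.213 (SE, edgeR, Benjamini-Hochberg adjusted p = 0.0446).

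miR-378a-3p and miR-378c have the same first 20 bases. miR-378c had 36 counts in all samples together, and none of the 6 relatives found with the seed of miR-378a-3p reached 60. miR-378d and miR-378e, related by name, were not among those found and had 2 and 0 counts in all. The handling of reads that match several entries is not given in the sources used here, so the split of counts within the miR-27 and miR-378 families is uncertain. The sequence of miR-151a-5p, matched to the chr8 entry, was not at hand, so its relatives were not looked up. miR-151b, related by name, had 367 counts and a log2 fold change of 0.56 ± 0.246 (SE, edgeR, Benjamini-Hochberg adjusted p = 0.0775). It was called by P-value but not by adjusted P-value, in the direction opposite to the chr8 entry. The split of reads between miR-151a-5p and miR-151b was not tested. Outside chromosome 8, no other RefSeq mature microRNA in the table used had the seed of miR-146b-3p or miR-130b-5p.

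The other arm of each hairpin gives a comparison that needs no scaling, since both arms come from 1 library. It was chosen after the values had been seen, with a two-sided exact permutation test for each of the 6 pairs, for which 0.1 is the smallest p that 3 samples against 3 allow. In 5 pairs the log2 ratio of the predicted entry to the other arm did not overlap between the groups (p = 0.1 each in the exact permutation test, adjusted p = 0.12 over the 6). The ratio was higher with RUNX1 for 2 of them and lower for 3. How often arm ratios do not overlap among all hairpins was not analysed here. The levels of single entries did not overlap for 64.8% of all tested entries.

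For the chr9 entry against miR-27b-5p the log2 ratio was 6.85, 7.09 and 7.11 with empty vector and 9.22, 9.29 and 7.72 with RUNX1. RUNX1 replicate 3 was nearer to the control samples than the other RUNX1 samples were. The chr13 entry against miR-15a-3p had log2 ratios of 7.34, 8.22 and 7.38 with empty vector and 10.2, 9.25 and 8.75 with RUNX1, but miR-15a-3p had only 70 counts in all. In both hairpins the predicted entry was by far the more abundant arm, and the other arm was not called, with log2 fold changes of -0.61 ± 0.342 (SE) for miR-27b-5p and -0.69 ± 0.381 (SE) for miR-15a-3p.

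The 3 entries that were lower with RUNX1 were also lower relative to their other arm. The chr8 entry against miR-151a-3p had a mean log2 ratio of -3.97 ± 0.0741 with empty vector and -5.06 ± 0.0985 with RUNX1 (SD, n = 3 each). The chr5 entry against miR-378a-5p had -5.21 ± 0.169 and -6.14 ± 0.0873, and the chr22 entry against miR-130b-3p had -2.09 ± 0.119 and -2.55 ± 0.0579 (SD, n = 3 each). The arms miR-151a-3p, miR-378a-5p and miR-130b-3p were more abundant than the predicted entries and were not called, with log2 fold changes of 0.13, -0.31 and -0.10. The uncertain split of reads between miR-378a-3p and miR-378c also bears on the chr5 ratio, and its part there was not tested. The chr10 entry against miR-146b-5p was the pair with overlap, at -7.54 ± 0.14 with empty vector and -7.43 ± 0.229 with RUNX1 (SD, n = 3 each; exact permutation test, p = 0.6). miR-146b-5p itself had a log2 fold change of 0.93 ± 0.113 (SE).

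**Figure D2:**
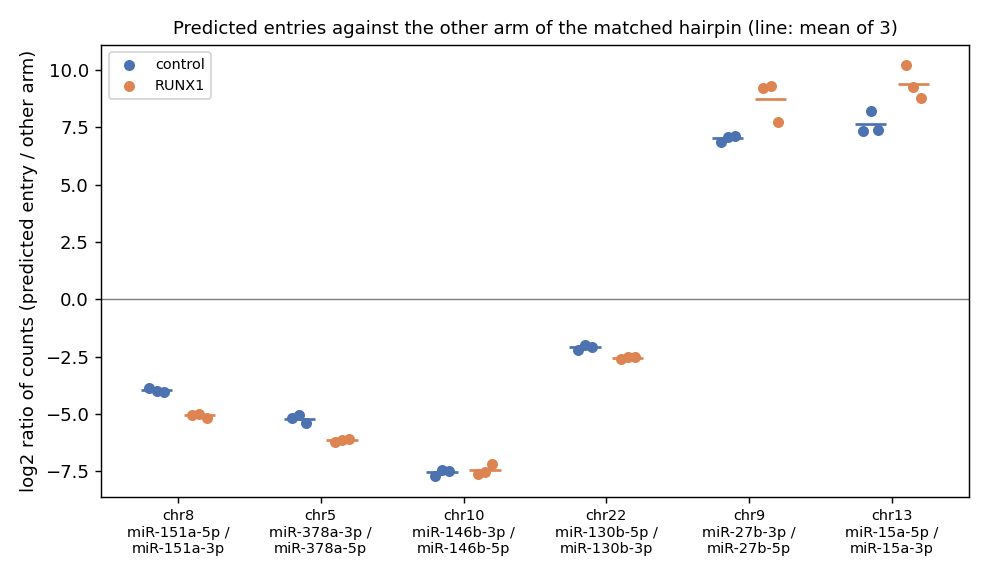
The log2 ratio of counts of each predicted entry to the other arm of the matched hairpin (vertical) in the empty vector and the RUNX1 samples for the 6 pairs; points are samples and lines are means of 3. The groups are apart in every pair but that of the chr10 entry, where the control values span -7.71 to -7.46 and the RUNX1 values -7.62 to -7.18.

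Another 2 predicted entries, both 18 nt long, had counts close to those of a C/D box snoRNA on the chromosome and strand of their name, and fewer than the snoRNA in every library. The snoRNA sequences follow, from GENCODE 29 on GRCh38, as the longer RNAs under whose names the counts were nearest to those of the short entries. Capitals mark the first TGATG, of the C box, and the last CTGA, of the D box, searched on the transcribed strand only. Both occur in this order in 89.8% of the 275 annotated SNORD transcripts.

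SNORD12 (nearest to the chr20 entry): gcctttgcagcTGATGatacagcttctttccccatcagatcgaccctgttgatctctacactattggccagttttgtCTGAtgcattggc

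SNORD45B (nearest to the chr1 entry): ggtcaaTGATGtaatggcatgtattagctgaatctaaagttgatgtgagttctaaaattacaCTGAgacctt

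SNORD12 is 90 nt long and lies on chr20:49280683-49280772 of GRCh38, plus strand, in the host transcript ZFAS1. SNORD45B is 72 nt long and lies on chr1:75789477-75789548 of GRCh38, plus strand, in an intron of RABGGTB. Where in these snoRNAs the 18 nt intervals fall was not analysed here, since the names use another build. Reads in the study were shorter than either snoRNA, so counts under their names do not measure whole snoRNAs.

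The entry novelmirna_chr20_47897285_47897302_plus had 461, 1795 and 1650 counts with empty vector and 3817, 2495 and 2057 with RUNX1. SNORD12 had 489, 1944 and 1771 with empty vector and 3894, 2531 and 2123 with RUNX1. The likeness of 0.115 was reached by 0.659% of the 910 other entries with their own nearest neighbour. The chr20 entry held 94.3%, 92.3% and 93.2% of the SNORD12 count with empty vector and 98%, 98.6% and 96.9% with RUNX1. The groups did not overlap, and the difference in the log2 ratio was 0.069 (exact permutation test, two-sided, p = 0.1, the smallest possible; adjusted p = 0.6 over the 6 ratios tested). The level of the chr20 entry was 220.1 ± 2.75 CPM with empty vector and 343 ± 50.6 CPM with RUNX1 (SD, n = 3 each), with a log2 fold change of 0.64 ± 0.141 (SE, edgeR, Benjamini-Hochberg adjusted p = 0.00359), beside 0.57 ± 0.138 (SE) for SNORD12. Its sign depended on the scaling, at -0.069 with the library total alone, and with factors from known microRNAs it was 0.428 and no longer called.

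The entry novelmirna_chr1_76255215_76255232_plus had 196, 808 and 563 counts with empty vector and 1123, 951 and 711 with RUNX1, and SNORD45B had 210, 890 and 623 with empty vector and 1254, 1010 and 746 with RUNX1. The likeness was 0.159, a value that 2.42% of the 910 other entries reached. The short entry held 91.5% ± 1.6 of the SNORD45B count with empty vector and 93% ± 3.05 with RUNX1 (SD, n = 3 each; exact permutation test, p = 0.6). In CPM it had 93.7, 100.2 and 74.1 with empty vector and 97.4, 152 and 104 with RUNX1, which overlap. The log2 fold change of 0.40 ± 0.201 (SE, edgeR, Benjamini-Hochberg adjusted p = 0.117) did not pass, and SNORD45B, with 0.37 ± 0.194 (SE), did not either. Without RUNX1 replicate 1 or without RUNX1 replicate 3 the entry was called, with 0.55 and 0.56, and with the library total alone its sign turned, to -0.317.

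**Figure D3:**
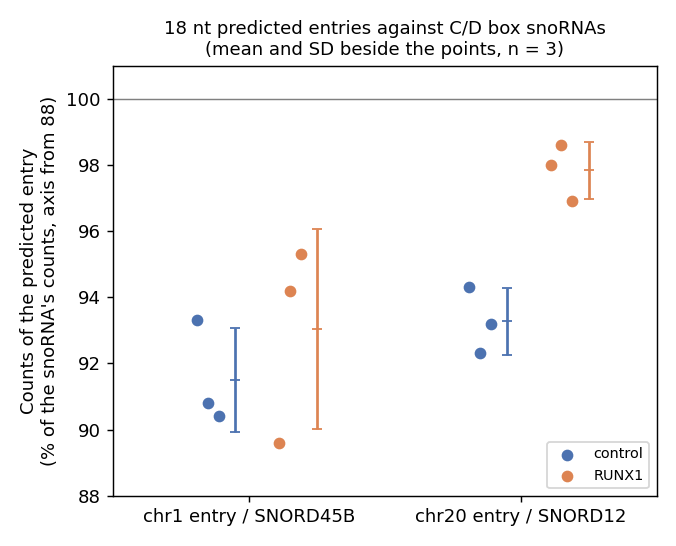
Counts of the chr1 and chr20 entries as a percent of the counts of SNORD45B and SNORD12 (vertical axis, not starting at 0) in the empty vector and the RUNX1 samples; points are samples, with mean and SD beside them (n = 3). For SNORD12 the RUNX1 samples, from 96.9 to 98.6%, lie above the control samples, from 92.3 to 94.3%, and for SNORD45B the groups overlap.

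The remaining 2 entries with at least 60 counts had no close counterpart in counts. The entry novelmirna_chr19_58024411_58024428_minus, 18 nt long, had 143, 656 and 700 counts with empty vector and 3745, 1695 and 2637 with RUNX1. Its nearest entry, SNORD84, was 0.669 away on the likeness scale, and 87.8% of the 910 other entries had a neighbour at least this near. In CPM it had 68.4, 81.4 and 92.1 with empty vector and 325, 271 and 385 with RUNX1, so that the lowest RUNX1 sample was well above the highest control sample. The log2 fold change of 2.01 ± 0.178 (SE, edgeR, Benjamini-Hochberg adjusted p = 1.79e-05) was the largest in size of the 10 tested predicted entries in this fit. It kept its call in all 14 alternative fits, from 1.33 with the library total alone to 2.18 without RUNX1 replicate 2. The entry ranked 114 of the 2596 microRNA entries by mean CPM, and no sequence of it was read here.

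The entry novelmirna_chr17_20841721_20841742_plus, 22 nt long, had 85, 380 and 397 counts with empty vector and 416, 276 and 394 with RUNX1. Its nearest entry was SNORD7 with a likeness of 0.352, followed by miR-4326 with 0.368, and 41.5% of the 910 other entries had a neighbour at least as near. SNORD7 also lies on the chromosome and strand of the predicted name, and the positions were not compared. The chr17 entry had more counts than SNORD7 in 4 libraries and fewer in 2. Its level was 46.7 ± 5.83 CPM with empty vector and 45.9 ± 10.8 CPM with RUNX1 (SD, n = 3 each), with overlapping samples and a log2 fold change of -0.04 ± 0.192 (SE, edgeR, Benjamini-Hochberg adjusted p = 0.87). With the library total alone it was -0.721 and called.

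The other 10 predicted entries failed the filter on low counts. The second chr22 entry, novelmirna_chr22_32744125_32744144_minus, had 1, 3 and 2 counts with empty vector and 6, 1 and 2 with RUNX1. The entries novelmirna_chr11_96074611_96074628_plus and novelmirna_chrY_10036026_10036045_plus had 1 count each in all 6 samples together. The 7 entries without a count were 5 on chromosome 16 (novelmirna_chr16_2186119_2186139_minus, novelmirna_chr16_15248848_15248868_minus, novelmirna_chr16_15005094_15005114_plus, novelmirna_chr16_18496091_18496111_minus and novelmirna_chr16_16403749_16403769_plus), all 21 nt long, and 2 on chromosome 12 (novelmirna_chr12_69593948_69593965_minus and novelmirna_chr12_71892272_71892290_plus).

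Equal counts say little for these entries. Known microRNAs without a count number 1030, and the 6 counts of the chr11 entry are shared by 182 other entries, 44 of them known microRNAs. A count of 0 allows up to 3 counts, which is 1.85 CPM, without TMM scaling, in the smallest library and 0.197 CPM in the largest, and this covers counting error only.

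Of the 10 predicted entries tested, 8 were called (P-value under 0.05, with a minimum of 0.5 for the size of the log2 fold change), 5 up-regulated and 3 down-regulated. The same rule called 57.6% of all 947 tested entries, 28.0% as up-regulated and 29.6% as down-regulated. All 8 were also called with the adjusted P-value, which called 54.6% of all tested entries. The samples of the groups did not overlap for these 8, as for 64.8% of all tested entries. The median log2 fold change was 0.52 over the 10 and -0.064 over all tested entries.

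The 8 are not 8 separate observations beside the known entries. Of the 6 entries that carry the counts of a known microRNA, all were called, 3 in each direction, and each of these microRNAs was called under its own name with the same value to within 0.001 on the log2 scale. The predicted entries with no such microRNA accounted for 2 of the 8 calls, the chr19 and the chr20 entry. Among the 335 microRNA entries called in all, leaving out the 6 repeated ones left 329.

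**Figure D4:**
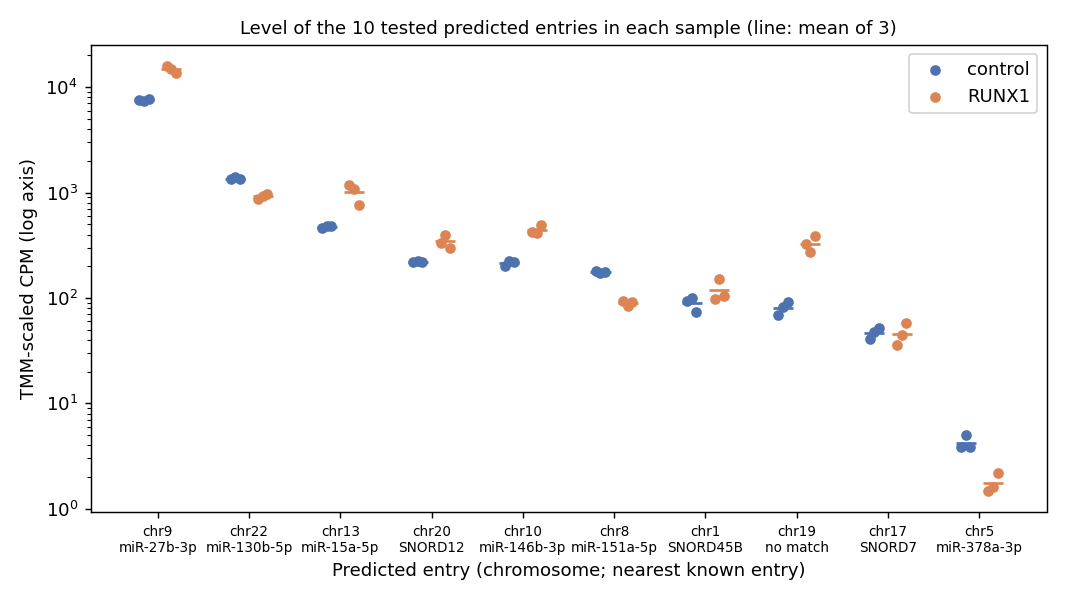
TMM-scaled CPM (vertical, log axis) of the 10 tested predicted entries in each control and RUNX1 sample, ordered by control level; points are samples and lines are means of 3. Levels run from 1.47 CPM in the chr5 entry to 15919 CPM in the chr9 entry, and the groups overlap only in the chr1 and the chr17 entry.

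**Figure D5:**
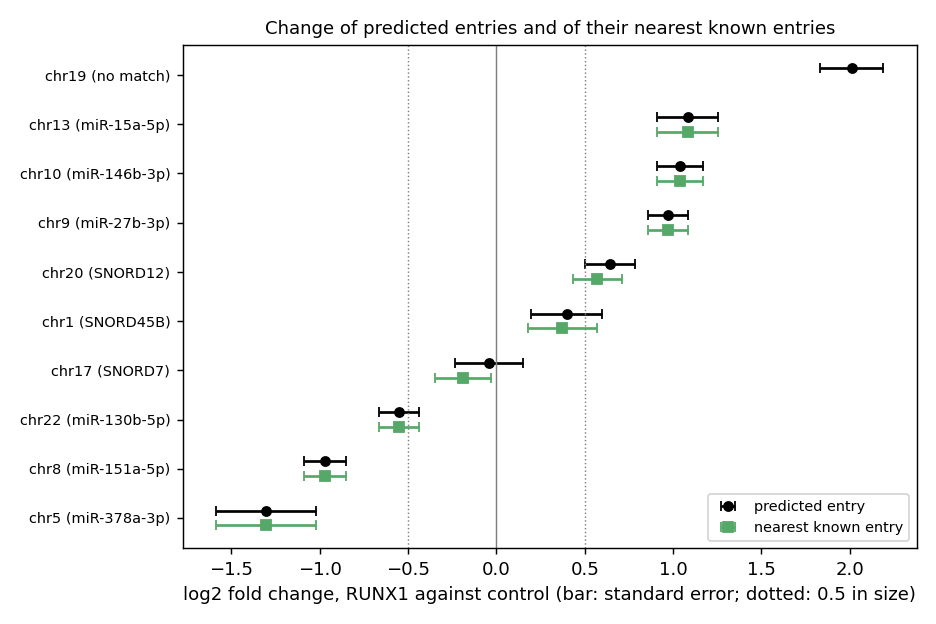
The log2 fold change (RUNX1 against control, horizontal) with its standard error for the 10 tested predicted entries and for the nearest known entry of 9 of them; dotted lines mark 0.5 in size. The markers of the 6 entries that carry the counts of a known microRNA lie at the value of that microRNA, and the chr19 entry, at 2.01, has no counterpart.

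The 20 entries together took 1.31%, 1.34% and 1.26% of all counts with empty vector and 1.46%, 1.34% and 1.45% with RUNX1, a mean of 1.3% ± 0.0358 and 1.42% ± 0.0644 (SD, n = 3 each; exact permutation test, two-sided, p = 0.1, the smallest possible). The chr9 entry alone took 0.964% ± 0.0215 with empty vector and 1.16% ± 0.0563 with RUNX1. Without it the other entries took 0.34% ± 0.0158 with empty vector and 0.259% ± 0.0131 with RUNX1 of the raw totals, while their summed TMM-scaled level was 2659 ± 59.5 CPM with empty vector and 3298 ± 126 CPM with RUNX1 (SD, n = 3 each; p = 0.1 in the exact permutation test). The direction of their sum thus depended on the scaling. Relative to the counts on known microRNAs, the share of the 20 entries was 1.62% ± 0.0516 with empty vector and 1.58% ± 0.0805 with RUNX1 (SD, n = 3 each; p = 0.6 in the exact permutation test). The 6 entries with the counts of a known microRNA held 95.7% ± 0.133 of the predicted counts with empty vector and 95.4% ± 0.49 with RUNX1. Their counts enter the total of all counts under both the predicted and the known name. The entries that repeat no known microRNA took 0.0558% ± 0.00299 of all counts with empty vector and 0.0656% ± 0.00695 with RUNX1 (SD, n = 3 each; p = 0.1 in the exact permutation test).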

How the data were processed

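Libraries were made from 1000 ng of total RNA with the TruSeq Small RNA kit and sequenced as single reads on a HiSeq2000, and the fastq files were made with CASAVA 1.8.2. The authors counted reads on annotated small RNAs on the OASIS platform, and deposited 1 table of raw counts for each sample. The build is hg19 per the labels; the aligner and the rule for reads that overlap 2 entries are not given in the sources used here. The 5 summary rows, which name no small RNA, sum to 0 and were left out.

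Counts were analysed in R 4.3.3 with edgeR 4.0.16 (filterByExpr with a minimum count of 10 and a minimum total of 15, TMM, then glmQLFit and glmQLFTest on condition alone, edgeR's quasi-likelihood test), which builds on limma 3.58.1, and DESeq2 1.42.0 as an alternative. TMM takes most entries as unchanged between libraries. The calling rule passed 57.6% of the 947 tested entries, so whether this holds here is uncertain. The TMM factors were 1.23 to 1.31 in the control libraries and 0.735 to 0.866 in the RUNX1 libraries, without overlap. Whether this scaling suits these data was not tested. P-values were adjusted by Benjamini-Hochberg over the 947 tested entries; standard errors (SE) were the log2 fold change over the square root of F. The thresholds are those of the study. The fits were tested on simulated data, in which most entries were unchanged and rises and falls were drawn with equal odds. This does not test the choice of scaling. All 20 predicted entries are named, each with its nearest known entry where the likeness was at most 0.5 and the predicted entry had at least 60 counts, and the other arm of that microRNA. Seed relatives, the arm ratios and the other SNORD45 and SNORD12 snoRNAs were added after the values were seen, and members and lists were chosen with earlier results of these data known. The total counts were 1618248 to 15245007, and replicates differed by more than sampling noise (chi-square over its degrees of freedom, 9.62 to 451).

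Alternatives were DESeq2, RLE factors, library totals alone, TMM factors from known microRNAs or without the repeated entries, testing all entries with a count, requiring 10 counts in each of the samples, calling by adjusted P-value, also with a minimum log2 fold change of 1, the replicate number as a block, other denominators and members of the shares, a pseudocount of 0.5 in place of 1 in the ratios, and each replicate left out.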

Additional observations from a re-analysis of the deposited data

How the results depend on the processing

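The number of predicted entries called altered was 8, and 7 or 8 under the alternatives except with the library total alone, where it was 5, and when both an adjusted P-value and a minimum log2 fold change of 1 were required, where it was 4. With the library total alone, the chr9, chr13, chr10 and chr20 entries lost their call and the chr17 entry gained one. The number was 8 without each replicate in turn. Without RUNX1 replicate 1 or without RUNX1 replicate 3, the chr1 entry was called in place of the first chr22 entry, that of miR-130b-5p. Scaling to the library total alone shifted the median log2 fold change of all tested entries by -0.698, factors from known microRNAs by -0.21 and testing every entry with a count by 0.179. The titles number the replicates, but the deviations of same-numbered samples had correlations from -0.0723 to 0.0342, and only 2 of 6 samples correlated best with their own number, so the numbers were not taken as pairs. With the replicate block 8 entries were called.

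The log2 fold change reversed with the library total alone for novelmirna_chr1_76255215_76255232_plus, -0.317, and for novelmirna_chr20_47897285_47897302_plus, -0.069. For novelmirna_chr17_20841721_20841742_plus, at -0.041, it was 0.03 with DESeq2 and with RLE factors, 0.034 without a count filter, and from -0.17 to 0.13 without each replicate in turn, with 0.068 without control replicate 3, 0.13 without RUNX1 replicate 1 and 0.027 without RUNX1 replicate 2. The share of counts on the predicted entries rose by 0.114 percentage points, which became -0.0339 of the counts on known microRNAs and -0.081 without the most abundant entry. With TMM scaling, added after seeing the data, the summed level without that entry was instead 638 CPM higher with RUNX1. The number of entries matched to a known entry was 3 with equal counts, 6 with a largest log2 difference of at most 0.1, and 9, snoRNAs included, with at most 0.5, a limit within which 72.3% of the 910 other entries also had a neighbour, against 0.44% for 0.1. The log2 ratio of the chr22 entry to miR-130b-5p, which rests on 4 counts, was -6.06e-05, and ranged from -0.000133 to 1.5e-06 without each replicate, the latter without control replicate 2. The cause of these changes was not tested, beyond the scaling itself.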

Other observations

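The snoRNAs nearest in counts to the chr1 and chr20 entries belong to sets of related snoRNAs in the same host transcript, chosen after the values were seen, which did not have the same values. Of the RABGGTB snoRNAs, SNORD45A had 104 ± 4.44 CPM with empty vector and 659 ± 155 CPM with RUNX1 (SD, n = 3 each), and its log2 fold change was 2.66 ± 0.184 (SE, edgeR, Benjamini-Hochberg adjusted p = 4.12e-06). SNORD45C had a log2 fold change of 1.46 ± 0.164 (SE), while SNORD45B, the one nearest to the chr1 entry, had 0.37 ± 0.194 (SE) and was not called. Of the ZFAS1 snoRNAs, SNORD12C had 0.50 ± 0.148 (SE), SNORD12 0.57 ± 0.138 (SE) and SNORD12B 0.14 ± 0.131 (SE). The values count short reads under each snoRNA name and are not levels of whole snoRNAs. The differences between these snoRNAs were not tested.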
